A study of Mus musculus with 2 samples.

Results

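Activation-induced feedback genes and heat shock genes were examined in mast cells grown from bone marrow of C57BL/6 mice. The 6 genes are Dusp2, Zfp36, Klf2, Ccl4, Dnajb1 and Hspa1b, of 8139 gene symbols in the deposited table, and each was found there once by its symbol. They were picked by name after their levels in these libraries were known, so the differences between the libraries are given as descriptions without a test. There was 1 library of wild type (WT) cells and 1 of Tet2-/- cells, which by their label lack Tet2, an enzyme that oxidises 5-methylcytosine in DNA. Both came from femoral marrow cultured for 4 to 6 weeks with 10% serum, interleukin-3 at 10 ng/ml and stem cell factor at 5 ng/ml. The cultures used were over 97.5% pure by surface IgE receptor and c-Kit. The labels name no stimulus, no time course, no design of the Tet2 allele, and no number, age or sex of the mice. Induction itself was therefore not measured, and the word describes what these genes are known for.

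Mast cells respond to IgE receptor crosslinking with calcium and MAP kinase signalling, and within minutes a set of short-lived transcripts accumulates. Some of these encode brakes on the response. Dusp2 is a nuclear phosphatase that inactivates MAP kinases, and Zfp36 encodes tristetraprolin, which binds AU-rich elements in cytokine transcripts and recruits deadenylases. Klf2 is a zinc finger transcription factor linked to quiescence in lymphocytes and to restraint of inflammatory genes in myeloid cells, and Ccl4 is a secreted CC chemokine. Dnajb1 and Hspa1b belong to the heat shock response, in which heat shock factor 1 drives chaperone genes. Hspa1b encodes an inducible HSP70, and Dnajb1 encodes a J domain co-chaperone that stimulates the ATPase of HSP70.

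Levels are RPKM, reads per kilobase of gene model and scaled to the mapped reads of the library, and can be compared between genes. A depth of 31300000 fragments in WT and 31600000 in Tet2-/- was inferred from how low values are spaced. Log2 folds were taken after adding 1 to each RPKM, so they understate the change of low genes, and ratios are of RPKM. A gene (or gene model) counted as higher or lower at 2-fold on that scale with a mean of at least 1 RPKM. This fixed size replaces a test. Bracketed 95% intervals of ratios are exact Clopper-Pearson intervals, and those of levels are exact Poisson intervals. They cover counting error only, not the spread between cultures or mice, because each genotype has 1 library. Tet2 itself was not analysed here, since its symbol does not appear in the table, and expression gives no check of the genotypes.

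The feedback genes had greater RPKM in the Tet2-/- library, whereas the heat shock genes lay close to each other in the libraries. Of the 6 genes, 5 passed the filter. Of these, 3 (Dusp2, Zfp36 and Klf2) were higher by 2-fold or more. Ccl4 fell just short of that rule, Dnajb1 stayed well below it, and Hspa1b did not reach the filter. Across all 2107 models past the filter, 2.90% were higher and 1.61% were lower by the same rule. Since the genes were chosen on this contrast, nothing is read from the count. In WT the order of levels was Dnajb1, Klf2, Zfp36, Dusp2, Ccl4 and Hspa1b. In Tet2-/- the order was the same except that Klf2 stood above Dnajb1. The counting intervals of neighbours in that order overlapped in WT for Dusp2 and Ccl4 and for no other neighbouring pair.

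**Figure D1:**
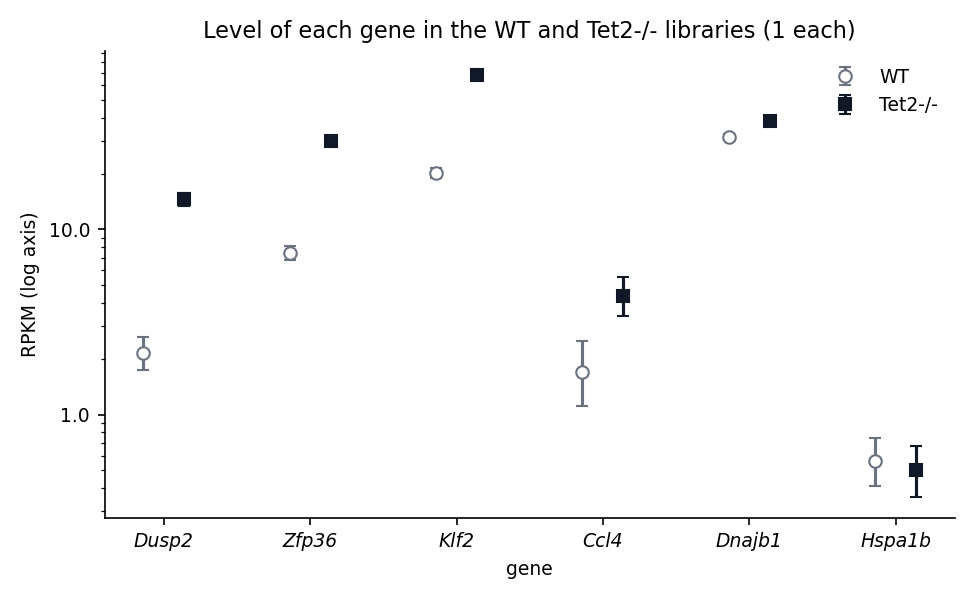
Level of each gene in RPKM on a log axis in the WT library (open circles) and the Tet2-/- library (filled squares), with exact 95% Poisson intervals that cover counting error only and are smaller than some symbols. The Tet2-/- symbols of Dusp2, Zfp36, Klf2, Ccl4 and Dnajb1 lie above those of WT with intervals that do not overlap. The gap of Dnajb1, at 31.6 and 38.7 RPKM, is the narrowest of these, and the intervals of Hspa1b overlap.

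Dusp2 showed the widest gap of the 6. The gene (ENSMUSG00000027368.6) lies on the plus strand of chromosome 2 at 127336159 to 127338376 (mm10) and has 4 exons. It was at 2.15 RPKM in WT (1.74 to 2.62) and 14.5 RPKM in Tet2-/- (13.4 to 15.7), with an estimated 97 and 662 fragments. The intervals lie far apart. The ratio was 6.77 (5.44 to 8.43) and the log2 fold 2.30. Among 1774 protein-coding genes past the filter its level stood at percentile 6.26 in WT and at percentile 44.9 in Tet2-/-. It held place 5 in the ranking of those genes by log2 fold. The stretch before its start is shown because it carries the one E-box found among the promoter windows of these genes, a motif bound by basic helix-loop-helix factors. It spans chr2:127336039-127336158 on the plus strand of GRCm38.p6, with the E-box CACGTG in capitals.
Dusp2 promoter: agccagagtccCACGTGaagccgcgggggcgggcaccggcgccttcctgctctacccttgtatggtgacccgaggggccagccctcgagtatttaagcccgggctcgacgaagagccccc

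Zfp36 had the next widest gap. The gene (ENSMUSG00000044786.6) lies on the minus strand of chromosome 7 at 28376784 to 28380253 and has at most 2 exons. Its level was 7.47 RPKM in WT (6.85 to 8.13) and 30.1 RPKM in Tet2-/- (28.8 to 31.3), on an estimated 534 and 2176 fragments. The ratio was 4.03 (3.66 to 4.44) and the log2 fold 1.88, at place 11 of the ranking. The RNA gene Gm44710 overlaps Zfp36 on the opposite strand. Whether the library kit kept strand is not stated, so reads of the pair cannot be told apart. Close to its RefSeq start lies a CArG box, the kind of sequence bound by serum response factor at immediate early genes. The site is printed with 8 bases on each side, from chr7:28379269-28379294 on the minus strand, with the CArG box in capitals.
Zfp36 site: aggccgccCCATAAAAGGagaaagct

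Klf2 was the most abundant feedback gene. The gene (ENSMUSG00000055148.7) lies on the plus strand of chromosome 8 at 72319033 to 72321656 and has 3 exons. It was at 20.1 RPKM in WT (18.9 to 21.3) and 68.5 RPKM in Tet2-/- (66.3 to 70.8), on an estimated 1049 and 3624 fragments. The difference of 48.5 RPKM was larger in absolute terms than that of any other of the 6 genes. The ratio was 3.41 (3.18 to 3.66) and the log2 fold 1.72, at place 15 of the ranking. In Tet2-/- its level exceeded that of 86.7% of protein-coding genes past the filter, against 56.5% in WT. Its promoter holds a MEF2 motif, shown because MEF2 factors are known regulators of this gene. The stretch is chr8:72318913-72319032 on the plus strand, with the MEF2 motif in capitals.
Klf2 promoter: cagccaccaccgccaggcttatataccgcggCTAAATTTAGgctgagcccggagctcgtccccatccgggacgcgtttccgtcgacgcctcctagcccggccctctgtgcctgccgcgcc

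Ccl4 was weakly expressed in both libraries. The gene (ENSMUSG00000018930.3) lies on the plus strand of chromosome 11 at 83662584 to 83664683 and has 3 exons. Its level was 1.70 RPKM in WT (1.11 to 2.50) and 4.37 RPKM in Tet2-/- (3.39 to 5.55). The transcript is 660 bases long, so these levels rest on an estimated 26 and 67 fragments. The intervals of the levels did not overlap, and the ratio was 2.56 (1.58 to 4.14). The log2 fold was 0.99, just under the 2-fold rule, and it was 1.31 with a pseudocount of 0.1, which took Ccl4 past the rule. Under that pseudocount 4.27% of models were higher. At a threshold of 1.5-fold, which 5.84% of models passed upward, Ccl4 counted as well, and at 4-fold (1.28%) Dusp2 alone of the 6 did. Its close relative Ccl3 was not analysed here. Their coding sequences were 70.2% identical, and the longest identical run was 9 bases.

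The ratios of the feedback genes could be ordered only in part. The interval of Dusp2 lay above those of Zfp36, Klf2 and Ccl4, and that of Zfp36 lay just above that of Klf2, without overlap before rounding. The interval of Ccl4 overlapped those of Zfp36 and Klf2. These intervals hold no spread between cultures. As a consequence of the unequal ratios, Zfp36 stood at 3.48 times the level of Dusp2 in WT and at 2.07 times in Tet2-/-, and Klf2 at 9.36 and 4.72 times.

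**Figure D2:**
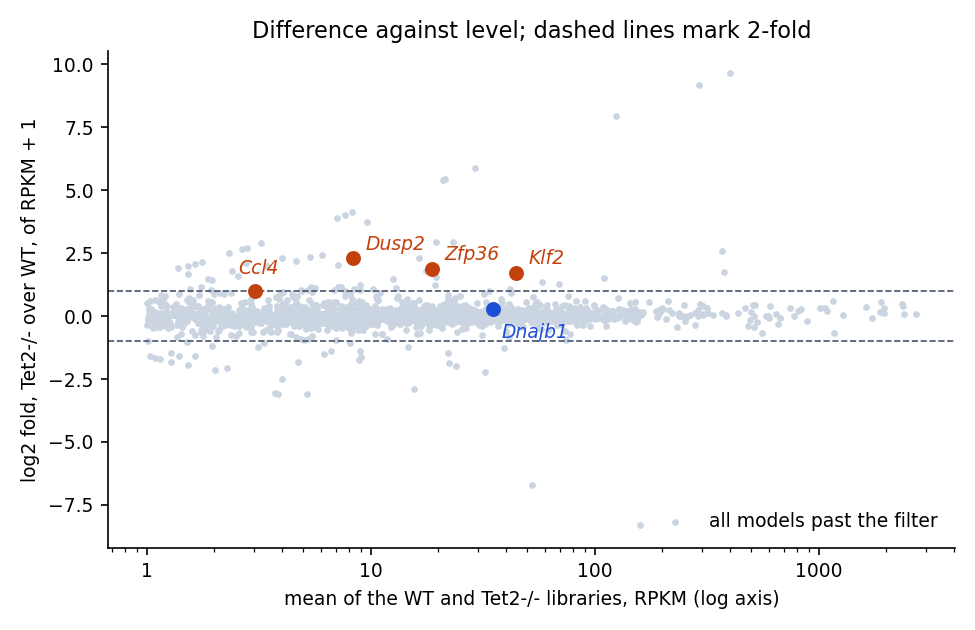
Log2 fold of RPKM + 1 (Tet2-/- over WT) against the mean level of the libraries in RPKM on a log axis, for 2107 models past the filter (grey). Feedback genes are orange and Dnajb1 is blue, and the dashed lines mark 2-fold. Dusp2, Zfp36 and Klf2 lie above the upper line at 2.30, 1.88 and 1.72, Ccl4 at 0.99 and Dnajb1 at 0.28.

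Dnajb1, the co-chaperone gene, was well expressed and differed little. The gene (ENSMUSG00000005483.10) lies on the plus strand of chromosome 8 at 83608193 to 83612653 and has 3 exons. It was at 31.6 RPKM in WT (30.4 to 32.8) and 38.7 RPKM in Tet2-/- (37.3 to 40.0), on an estimated 2644 and 3273 fragments. Its ratio was 1.22 (1.16 to 1.29), so the gap exceeded counting error, and the log2 fold was 0.28. It held place 220 of 1774 in the ranking.

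Hspa1b was close to undetected, at 0.561 RPKM in WT (0.411 to 0.749) and 0.500 RPKM in Tet2-/- (0.360 to 0.676). The gene (ENSMUSG00000090877.3) lies on the minus strand of chromosome 17 at 34956436 to 34959238 and has 1 exon. An estimated 46 and 42 fragments lay on it. The ratio was 0.891 (0.580 to 1.40), and a difference within that interval was not detectable at this depth. Its neighbour Hspa1a, not analysed here, has a coding sequence 99.5% identical to that of Hspa1b, with an identical run of 638 bases. Reads of the pair cannot be assigned with certainty, so the level of Hspa1b is uncertain.

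The heat shock promoters are shown for the CCAAT box they share and for the heat shock element, GAANNTTC, which was found in that of Hspa1b. The stretches are chr17:34959239-34959358 on the minus strand and chr8:83608014-83608174 on the plus strand, and capitals mark the heat shock element and the CCAAT box, which reads ATTGG on this strand.
Hspa1b promoter: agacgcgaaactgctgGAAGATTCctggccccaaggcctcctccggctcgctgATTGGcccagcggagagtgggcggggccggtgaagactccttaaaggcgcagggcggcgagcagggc
Dnajb1 promoter: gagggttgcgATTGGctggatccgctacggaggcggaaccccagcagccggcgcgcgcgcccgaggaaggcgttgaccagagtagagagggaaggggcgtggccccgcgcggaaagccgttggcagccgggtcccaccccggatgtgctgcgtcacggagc

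Searches for 10 motifs covered both strands of the RefSeq promoter windows, 300 bases that run from 250 before to 50 after each start on GRCm38.p6. Windows were matched for Dusp2, Zfp36, Klf2, Dnajb1 and Hspa1b, not for Ccl4, and Dnajb1 has 2 of them. The heat shock element in Hspa1b starts 104 bases before the start, and 7.86% of all 32851 windows hold one. The CCAAT box occurred in the windows of Hspa1b and Dnajb1 and in 37.4% of all windows. The E-box of Dusp2 (7.15% of windows), the CArG box of Zfp36 (1.63%) and the MEF2 motif of Klf2 (3.19%) each occurred in 1 of the 5 genes. The NF-kappaB motif was matched in Hspa1b and in 8.46% of windows. All 5 genes held a GC box, GGGCGG, which was in 35.7% of all windows and 63.9% of those of genes past the filter, and that of Zfp36 overlaps its CArG box. Neither the TATA box TATAAA (13.6%), the AP-1 motif TGANTCA (7.81%) nor the CRE motif TGACGTCA (1.79%) was matched. A match is a description of letters, not a binding site.

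CpG dinucleotides are the sites whose methylation Tet2 acts on, and the promoter windows of these genes differed in how many they hold. Dnajb1 held 36 in its upstream window and Klf2 32, Dusp2 held 26, Zfp36 21 and Hspa1b 16. The median was 21 over 1940 windows of genes past the filter and 7 over all windows. Klf2 and Dusp2 thus lay above the median of expressed genes, Zfp36 at it, and Hspa1b below it. In order of falling count the log2 folds were 0.28 for Dnajb1, 1.72 for Klf2, 2.30 for Dusp2 and 1.88 for Zfp36. Hspa1b, which did not reach the filter, had -0.06. The 5 genes were chosen with their folds known, and a link between CpG count and fold was not tested. No methylation was measured here.

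The 3′ untranslated regions of the genes differed in AU-rich elements, and the answer depended on the motif. The tristetraprolin site TATTTAT, where T stands for U of the RNA, was searched in the 3′ untranslated region of the longest basic GENCODE transcript. Zfp36 held 3 sites, Dusp2, Klf2 and Ccl4 held 1 each, and Dnajb1 and Hspa1b held none, although the region of Dnajb1, at 1834 bases, is the longest of the 6. The shorter core ATTTA, which is part of that site, did not divide the genes in the same way: Dusp2 held 4, Zfp36 3, Ccl4 and Hspa1b 2 each, Klf2 1 and Dnajb1 0. Of 1755 protein-coding genes past the filter, 30.7% held at least 1 site and 3.99% held 3 or more. The sites are printed with 8 bases on each side and the match in capitals, since they are the elements through which the Zfp36 protein is known to act, on its own transcript among others. Their positions are chr2:127338307-127338329, chr8:72320991-72321013 and chr11:83664545-83664567 on the plus strand for Dusp2, Klf2 and Ccl4. Those of Zfp36 are chr7:28376969-28376991, chr7:28376954-28376976 and chr7:28376929-28376951 on the minus strand.
Dusp2: gcactttaTATTTATatagaaca
Klf2: cagactgcTATTTATtggacctt
Ccl4: atttctatTATTTATgttttagt
Zfp36, first: gggcccttTATTTATgacgactt
Zfp36, next: gacgacttTATTTATtgtattaa
Zfp36, last: ttttatagTATTTATatatattg

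Genes with and without the site were set side by side across the table. These groups also differ in the length of the 3′ untranslated region, with a median of 2000.5 bases with a site and 818 bases without. The part of the site in the folds was therefore not tested. Genes with at least 1 site had a median log2 fold of 0.003, and 8 of 538 (1.49%) were higher by 2-fold or more. Genes without a site had a median of 0.01, and 22 of 1217 (1.81%) were higher. Of the 70 genes with 3 or more sites, Zfp36 was the one that was higher, and 0 were lower.

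The 6 genes were also alike in build. They span 2.10 to 4.46 kb of genome and have 1 to 4 exons, whereas the median over 1769 protein-coding genes past the filter was 22.7 kb and 10 exons. In genomic length they ran from Ccl4 at percentile 2.32 to Dnajb1 at percentile 9.33. Feedback and heat shock genes did not separate by this measure.

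**Figure D3:**
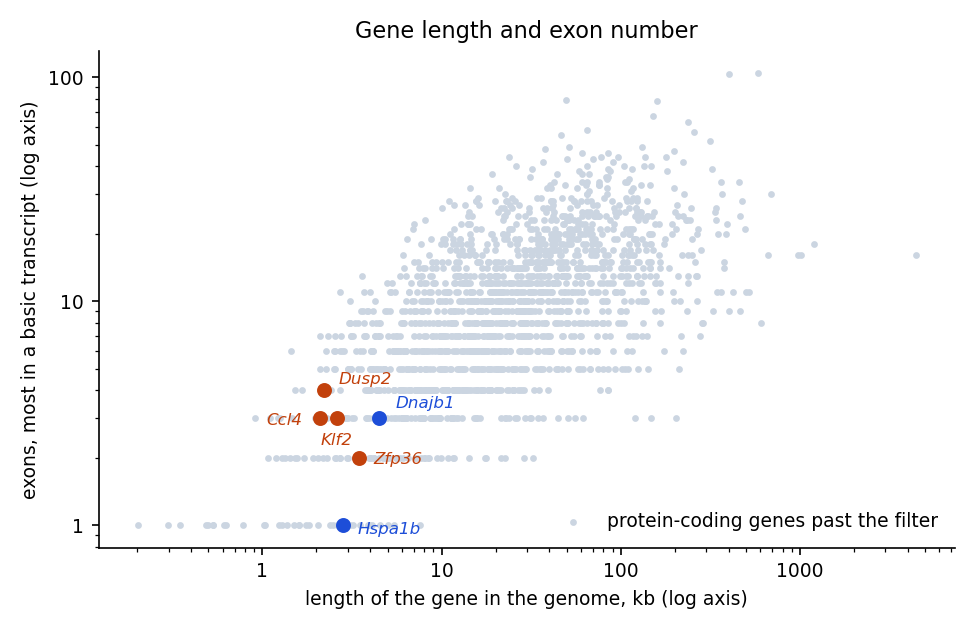
Number of exons against the length of the gene in kb, both on log axes, for protein-coding genes past the filter (grey), with feedback genes in orange and heat shock genes in blue. The 6 genes lie at the lower left, between 2.10 and 4.46 kb and with 1 to 4 exons.

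Other genes of the pathway lists showed no gap of 2-fold. The 17 lists hold 405 genes besides the 6, of which 63 are in the table and 48 passed the filter. The 48 include 5 housekeeping genes, which were kept as a list of their own. Of these 48, 0 were higher and 0 lower by 2-fold, and their median log2 fold was 0.02, against 0.01 over all 2107 models. Of all models 2.90% were higher and 1.61% lower, so few such genes are due among 48. The 6 genes were chosen on this contrast, so a difference between them and the 48 was not tested. They ranged from -0.61 for Vegfa to 0.58 for Dnajb6. The lists were written with earlier results on these data known.

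Among dual specificity phosphatases, the 3 listed relatives of Dusp2 did not reach the 2-fold rule, and Dusp2 itself was chosen on this contrast. Dusp7, which acts on ERK in the cytoplasm, was at 5.91 RPKM in WT against 7.62 RPKM in Tet2-/-, a ratio of 1.29 (1.15 to 1.44). Dusp18 was at 3.81 and 5.29 RPKM, and Dusp11, an RNA phosphatase, at 51.3 and 50.1 RPKM. The substrates and kinases of the cascade gave log2 folds between -0.06 and 0.49 in the 5 genes past the filter. Mapk3, which encodes ERK1, was at 56.2 and 53.8 RPKM, Map2k3 at 55.8 and 55.0 RPKM, and Map3k2 at 5.19 and 7.69 RPKM. The adaptor gene Dok1, a brake on Ras signalling, was at 16.3 and 17.2 RPKM. Of 22 immediate early factors 1 is listed, Egr4, at 0.0325 and 0.0952 RPKM, which is about 2 and 6 fragments, and the others were not analysed here.

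Of 53 mRNA decay factors 10 are in the table, and 9 of these passed the filter. Zfp36, chosen on this contrast, was the one of the 9 that was higher by 2-fold, and 2.90% of all models were. The 8 others ranged from -0.35 to 0.39 in log2 fold. Khsrp, which also binds AU-rich elements, was at 34.6 RPKM in WT against 31.3 RPKM in Tet2-/-, and Tial1 at 76.2 and 59.7 RPKM. The deadenylase subunits and partners lay close together, with Cnot4 at 12.4 and 13.0 RPKM, Cnot11 at 11.9 and 12.5 RPKM, and Pan3 at 27.0 and 29.3 RPKM. Parn was at 18.0 and 16.6 RPKM and the exosome subunit gene Exosc9 at 19.4 and 25.8 RPKM. Transcripts known as tristetraprolin targets did not share 1 direction. Vegfa stood at 48.7 and 31.5 RPKM, so its ratio was 0.646 (0.561 to 0.743), Zfp36 was higher and Ccl4 fell just short of the rule as given above, and Ptgs2 was at 0.120 and 0.117 RPKM. Il10 was listed at 0.01, the value that stood most often in the table, in both libraries.

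Of the transcription factors related to Klf2, Sp1 was at 28.6 RPKM in WT against 25.4 RPKM in Tet2-/-, Sp6 was listed at 0.01 in both, and the other Kruppel-like factors were not analysed here. Itgb7, an integrin gene known to respond to Klf2 in T cells, was at 106 and 98.9 RPKM. Besides Ccl4, the listed chemokines were at or near the lowest values. Cx3cl1 was at 0.112 and 0.130 RPKM, and Ccl22, Cxcl10 and Ppbp were listed at 0.01 in both libraries. The NF-kappaB genes, which include inducible brakes, lay between -0.18 and 0.12 in log2 fold in all 6 that are listed. Tnfaip3, which encodes an inducible deubiquitinase, stood at 19.4 and 21.2 RPKM with a ratio of 1.09 (1.04 to 1.15). Rela was at 21.2 and 21.6 RPKM, Nfkb2 at 10.6 and 10.5 RPKM, and Tnip1 at 17.0 and 15.7 RPKM.

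The listed chaperone genes around Dnajb1 and Hspa1b did not reach the 2-fold rule, although the ratio intervals of several excluded 1. Among J domain genes the largest log2 fold was that of Dnajb6, 0.58, at 65.5 RPKM in WT against 98.6 RPKM in Tet2-/-, a ratio of 1.505 (1.36 to 1.66). The weaker Dnajb5 had a ratio of 1.54 (1.17 to 2.07) at 1.27 and 1.96 RPKM, and Dnajc12, which did not pass the filter, 1.56 (1.14 to 2.14). Dnajb11, which serves the endoplasmic reticulum, was at 74.0 RPKM in both, and Dnaja2 was at 44.1 and 42.8 RPKM. Hspa4, an HSP110-type exchange factor gene, was at 101 and 98.2 RPKM, and Hspa4l at 20.5 and 23.0 RPKM. The mitochondrial chaperonin gene Hspd1 was at 126 and 121 RPKM and the HSP70 exchange factor gene Bag1 at 71.7 and 90.1 RPKM. The heat shock factor gene Hsf2 was at 4.65 and 5.21 RPKM, and its interval included 1. The 4 genes of the unfolded protein and integrated stress response that are listed had a median log2 fold of 0.13, with Herpud1 at 95.9 and 104 RPKM and Sesn2 at 17.1 and 19.5 RPKM. The 5 housekeeping genes had a median of 0.11 and ranged from -0.19 for Tbp to 0.57 for Ppia.

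**Figure D4:**
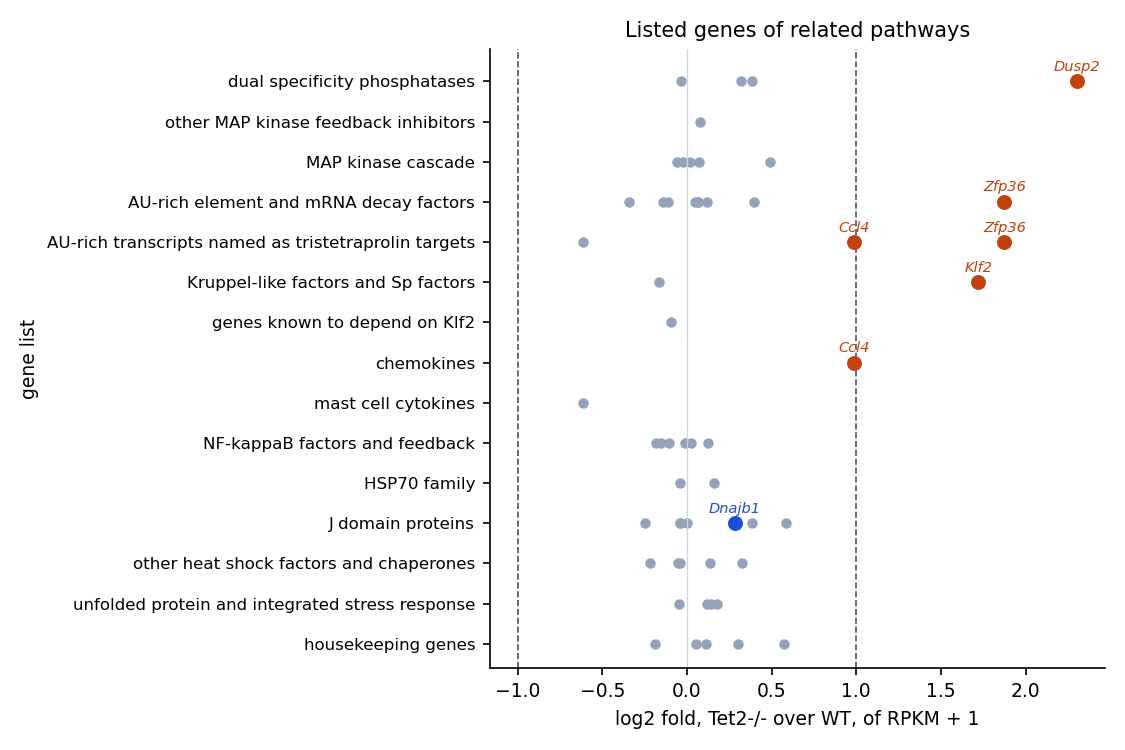
Log2 fold of RPKM + 1 (Tet2-/- over WT) of every listed gene past the filter in each pathway list, with feedback genes in orange, Dnajb1 in blue and other genes in grey. The dashed lines mark 2-fold. The grey points lie between -0.61 and 0.58, and Dusp2, Zfp36 and Klf2 lie to the right of 1.

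Of the listed markers of other blood cells, Ly6c2, Ly6g and Mcpt8 were higher in Tet2-/- by the rule of size, and none was lower. The lymphocyte marker Ncr1 passed the filter without reaching the rule, and the others did not pass the filter. The mast cell marker Smpx was higher as well, with a log2 fold of 1.15. By the same rule 2.90% of all models were higher. Klf2, Zfp36, Dusp2 and Ccl4 are also known to be expressed in monocytes, macrophages and granulocytes. Of 15 macrophage and monocyte markers 6 are listed, and their summed level was 1.06 RPKM in WT against 23.8 RPKM in Tet2-/-. Most of that sum was Ly6c2, at 0.479 and 18.8 RPKM, while Csf1r was at 0.122 and 1.32 RPKM and C1qb at 0.105 and 1.51 RPKM. The 3 listed neutrophil markers summed to 1.12 and 10.1 RPKM, with Ly6g, which like Ly6c2 has close paralogs, at 1.10 and 9.61 RPKM, Mpo listed at 0.01 in WT and at 0.458 RPKM in Tet2-/-, and Csf3r listed at 0.01 in both. The 2 eosinophil markers summed to 0.829 and 2.27 RPKM, with Ear2 at 0.117 and 1.45 RPKM and Il5ra at 0.712 and 0.820 RPKM, where the ratio interval of Il5ra (0.717 to 1.89) included 1. The basophil marker Mcpt8 was at 56.1 and 163 RPKM. The 2 lymphocyte markers summed to 0.836 and 1.38 RPKM, the erythroid and megakaryocyte marker Ppbp was listed at 0.01 in both, and no dendritic cell marker is listed. Of the 14 mast cell markers 4 are listed, with Fcer1g at 594 and 438 RPKM, Slc18a2 at 572 and 491 RPKM, Mitf at 31.3 and 30.9 RPKM and Smpx at 4.18 and 10.5 RPKM. Kit, Fcer1a and Ms4a2 were not analysed here. In a bulk library more cells of a type and more RNA per cell cannot be told apart, and the part of these markers in the levels of the feedback genes was not tested.

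The genes nearest to the feedback genes in log2 fold were named from 1475 protein-coding genes whose mean reached 5 RPKM. The likeness is over 2 libraries and so compares 1 difference. Nearest to Dusp2 were Ly6g and the efflux transporter gene Abcg2, at 1.25 RPKM in WT against 10.9 RPKM in Tet2-/-. Both Zfp36 and Klf2 lay nearest to Spp1, the osteopontin gene, at 7.35 and 27.8 RPKM, and S100a6, a calcium-binding protein gene, at 170 and 581 RPKM.

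Neighbouring genes on the chromosome did not share the gap. The nearest listed protein-coding genes within 200 kb of Dusp2 were Stard7, at 35.6 RPKM in WT against 34.4 RPKM in Tet2-/-, and Prom2, listed at 0.01 in both. Beside Zfp36 stood Med29, 5.89 kb away, at 8.41 and 8.20 RPKM, and Timm50 at 25.2 and 26.6 RPKM. Klf2 was flanked by Rab8a at 89.3 and 86.6 RPKM and 1700030K09Rik at 4.53 and 3.91 RPKM. Wfdc18, near Ccl4, was listed at 0.01 in both libraries, and Ptger1, near Dnajb1, was at 29.8 and 23.6 RPKM. Ehmt2, near Hspa1b, was at 78.4 and 78.0 RPKM. Many genes in these stretches are not in the table, so nearer neighbours were not analysed here.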

How the data were processed

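Each genotype has 1 column of RPKM values, as deposited by the authors and per the file headers. Per the submitters' processing notes reads were placed on mm10. Aligner, counting program and annotation are not given in these sources. A gene model's length enters its RPKM, and reads of close copies may be split. The table holds 17.1% of annotated protein-coding genes, and 7861 of 8139 symbols matched GENCODE mouse release 21, on the same build. In WT 58.1% of models, and in Tet2-/- 57.4%, had the value 0.01, taken here to stand for no reads.

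Depth was estimated from genes with 1 annotated transcript of at least 500 bases. RPKM times effective length times depth came within 0.1 of a whole fragment, up to 5 fragments, for 96.4% of 331 genes in WT and 96.8% of 345 in Tet2-/-, where chance gives 20%. The depths are inferred. Fragment numbers for intervals used the shortest basic transcript of at least 400 bases.

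The 6 genes and all lists were chosen with earlier results of these data known. Genes named from a pathway list were those past the rule of size or otherwise up to 6 of highest level, with a few weaker ones added after their values were seen. From marker lists they were the detected genes, up to 6. Neighbours and the 2 nearest genes in log2 fold followed fixed rules, whereas the motifs and the searches of gene build and 3′ regions were set after the values were seen. Promoter sequences are from RefSeq on GRCm38.p6 and transcript sequences from GENCODE. Coding sequences were compared by global alignment. On simulated libraries of 2028 genes with counting error only, all 66 genes changed 3-fold, all 67 changed 4-fold and 0 of 67 changed 1.5-fold were called, with 0 of 1828 unchanged genes called. Tables were handled in pandas 2.3.3 and numpy 2.4.6, intervals in scipy 1.17.1 and plots in matplotlib 3.10.9, under Python 3.11.15. Strand is not stated, and of the named genes besides Zfp36 these overlap a gene on the opposite strand: Dusp11, Khsrp, Exosc9, Nfkb2, Tnip1, Dnajb6, Dnajb11, Hspd1, Herpud1, Tbp, Cxcl10, Sp6, Ear2, Csf1r, Mpo, Mitf, Slc18a2, Med29, Ptger1 and 1700030K09Rik.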

Additional observations from a re-analysis of the deposited data

How the results depend on the processing

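The counts and folds rest on 1 library per genotype, and intervals cover counting error only. No paired analysis was possible because there is no second sample of either genotype, which also means that no library could be left out. With a pseudocount of 0.1 the log2 fold of Dusp2 was 2.70. With a pseudocount of 5 it was 1.45 for Dusp2, 1.49 for Zfp36, 1.55 for Klf2 and 0.48 for Ccl4, so that Dusp2 no longer led. No sign changed among the 18 alternative folds of the 6 genes, although a pseudocount cannot change a sign. Of the 6 genes, 4 were higher with a pseudocount of 0.1 or at 1.5-fold, where Ccl4 joined, and 1, Dusp2, at 4-fold. Over all models, 61 were higher and 34 lower, against 33 and 14 with a pseudocount of 5, 40 and 16 when the mean had to reach 5 RPKM, 123 and 76 at 1.5-fold, 27 and 10 at 4-fold, and 30 and 16 among protein-coding genes. List medians were recomputed 74 times, and 70 of these moved by no more than 1.5-fold. With no filter the medians of the chemokines, the Kruppel-like and Sp factors, the tristetraprolin targets and the mast cell cytokines became 0, 0, 0 and 0, since genes at 0.01 in both libraries entered. The median ratio of Tet2-/- to WT was 0.01 on the log2 scale, the shift between the libraries that median-ratio scaling removed, and the longest transcript moved no interval of Zfp36 or Dnajb1 by as much as its width.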

Other observations

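Short genes with few exons, a set that the feedback genes belong to, were counted against the other genes of the table, with no test of the difference. The bounds of 5 kb and 4 exons were set after the values were seen, so that all 6 genes fall inside them. Of 112 such protein-coding genes past the filter 8 (7.14%) were higher in Tet2-/- by 2-fold or more and 1 (0.893%) was lower. Of the 1657 other genes 22 (1.33%) were higher and 15 (0.905%) lower. With only the 6 genes left out, 5 of 107 short genes (4.67%) were higher. Among these are Ly6c2 and Ly6g, described above as markers of other blood cells. The median log2 fold of the 107 genes was 0.11, against 0.005 for the other genes, which include short genes with more exons. The share rests on few genes and on 1 library per genotype.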
